A study of Rattus norvegicus with 16 samples.

Results

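The miRNAs mir-192, mir-194 and mir-215 were followed across 6 tissues of the rat. They are made from 4 of the 392 hairpins with reads in the deposited files, rno-mir-192, rno-mir-215 and both copies of rno-mir-194 (rno-mir-194-1 and rno-mir-194-2), which were taken by name, leaving out antisense hairpins. The 4 hairpins have 8 arms, of which 6 had at least 1 read in the 16 libraries. The group was chosen by the read numbers in kidney, where mir-192-5p, the miRNA of the 5p arm of mir-192, has the most, so its tissue levels are given as a description without a test. Small RNA was cloned from 6 whole tissues of 1 BN-Lx rat and 1 SHR rat, both adult males (kidney, liver, testis, heart, brain and spleen), and from 4 further whole livers of adult males, 2 of each strain. BN-Lx is an inbred brown Norway line with the polydactyly-luxate syndrome, and SHR is the inbred spontaneously hypertensive rat. The labels name no treatment, and all 12 libraries of the six-tissue set come from these 2 animals, so that each strain is represented by 1 animal outside the liver.

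The members belong to 2 genomic pairs, each of which joins a mir-194 copy to mir-192 or to its relative mir-215. They are known as miRNAs of liver, kidney and gut epithelium, their transcription in these tissues is controlled by hepatocyte nuclear factors, and they are induced by p53. A miRNA finds its targets mainly through the seed, bases 2 to 8 from its 5' end, so that miRNAs with the same seed are grouped together. In RefSeq (GRCr8), mir-194-2 lies at chr1:212994024-212994108 and mir-192 at chr1:212994209-212994318, both on the plus strand, with 100 bases between them, in the interval between the protein-coding genes Atg2a and Ehd1. mir-194-1 lies at chr13:99382716-99382798 and mir-215 at chr13:99382990-99383086, also on the plus strand and 191 bases apart, within the span of Iars2, which encodes the mitochondrial isoleucyl-tRNA synthetase.

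The mature sequences are printed from RefSeq (GRCr8) with the seed in capitals, to show which members share a seed. miR-192-5p and miR-215, which lie in different genomic pairs, share the seed UGACCUA, and no other of the 724 mature rat miRNAs in RefSeq has it. Of the 21 bases of miR-192-5p, 18 equal those of miR-215 at the same position, and the others are C1A, A12U and C20A, counted from 1 at the 5' end with the base of miR-192-5p first. Both mir-194 hairpins give the same miR-194-5p, whose seed no other mature miRNA in RefSeq has.
miR-192-5p: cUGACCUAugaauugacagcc
miR-215: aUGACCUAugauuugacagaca
miR-194-5p: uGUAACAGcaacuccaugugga
miR-192-3p: cUGCCAGUuccauaggucacag
miR-194-3p: cCAGUGGGgcugcuguuaucu

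Library depth varied widely. The six-tissue libraries held 26880 to 1064894 miRNA reads, the 2 testis libraries being the smallest, and the 4 further livers held 1167607 to 3229461. The study's methods give more PCR cycles for the testis libraries and the liver of the SHR rat than for the rest. Levels are reads relative to the outlier-corrected mean (ocm), for which the read numbers of all arms of known rat hairpins were averaged in each library after removal of the 3 highest. The labelled tissues were checked with 14 tissue marker miRNAs, of which 13 were higher in both libraries of their own tissue than in every other library. The exception was mir-204, a kidney marker, which was higher in testis. All libraries are bulk tissue, in which fewer cells of a type and less RNA per cell cannot be told apart.

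mir-192-5p was a liver and kidney miRNA, at levels far above those of the 4 other tissues. In BN-Lx and SHR it measured 175 and 118 per ocm in liver, 77.3 and 52.2 in kidney, 5.10 and 3.09 in testis, 1.47 and 1.28 in heart, 1.67 and 1.07 in brain, and 0.889 and 1.08 in spleen. The further livers of BN-Lx gave 84.3 and 101, and those of SHR 110 and 109. On this scale every liver was thus above both kidneys, and both kidneys were above all 8 libraries of the other tissues. Within the strain, the kidney level was 15.2-fold (BN-Lx) and 16.9-fold (SHR) that of testis, the next tissue, and the liver level was 34.4-fold and 38.2-fold. The liver to kidney ratio was 2.27 in each strain. As a share of all reads the livers (5.71 to 14.6%) and the kidneys overlapped. In the order of the tissue means, heart (1.38 ± 0.14, SD, n = 2) and brain (1.37 ± 0.42, SD, n = 2) did not differ beyond their spread, and the brain and spleen values overlapped.

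In kidney, mir-192-5p was the arm with most reads. It took 52900 reads in BN-Lx, 9.72% of the library (95% exact binomial interval 9.64 to 9.80), and 42526 in SHR, 7.11% (7.05 to 7.18). These intervals cover counting error only, as do all those given here. The next arm was mir-145-5p, a miRNA of smooth muscle, with 8.96% and 5.43%. In liver mir-192-5p ranked 2nd or 3rd in all 6 libraries behind mir-122-5p, the main hepatocyte miRNA, which alone took 26.6% and 32.2% of the six-tissue livers and 39.9 to 45.6% of the further ones. Its rank was 45 to 81 in the 8 libraries of brain, spleen, heart and testis.

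mir-122-5p was used to see how much liver sequence stood in the other libraries. In brain, spleen, heart and testis it had 0.0641 to 0.936 per ocm, which is 0.0196 to 0.292% of the liver level of the same strain, and it was highest in the 2 testis libraries. mir-192-5p in the same 8 libraries was 0.507 to 2.91% of its liver level, and was also highest in testis. The testis values of mir-122-5p rest on 29 and 21 reads in BN-Lx and SHR. A testis maximum was not particular to liver miRNAs. Outside their own tissue, the markers mir-124, mir-9, mir-133a and mir-204 were also highest in BN-Lx testis. For mir-1, mir-208, mir-142, mir-223, mir-150, mir-200b and mir-10a it was a library of another tissue. The mir-122-5p share in the kidneys was 0.0305% and 0.0225% of liver, against 44.1% for mir-192-5p in both strains. The part of liver sequence in the levels of the other tissues was not tested.

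**Figure D1:**
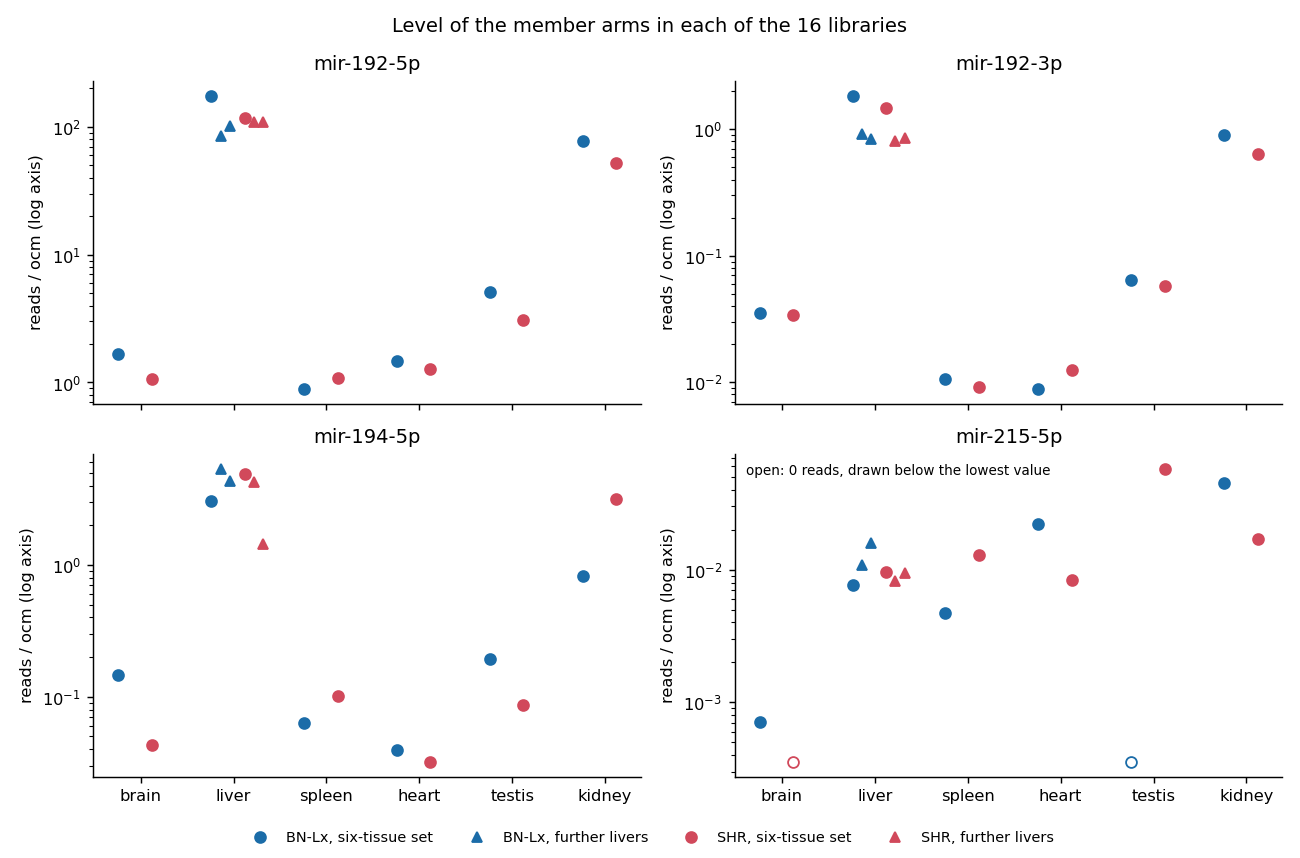
Level of mir-192-5p, mir-192-3p, mir-194-5p and mir-215-5p in reads per ocm (log axes) by tissue, with a point for each of the 16 libraries; circles are the six-tissue set, triangles the further livers, blue BN-Lx and red SHR, and open circles libraries with 0 reads. The liver and kidney points of the 2 arms of mir-192 and of mir-194-5p stand above those of the 4 other tissues, whereas those of mir-215-5p lie among them.

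mir-192-3p, the product of the opposite arm, followed mir-192-5p at a far lower level. In BN-Lx and SHR it measured 1.84 and 1.48 per ocm in liver and 0.894 and 0.639 in kidney. The other tissues were between 0.00884 in BN-Lx heart and 0.0645 in BN-Lx testis. The 4 further livers had 0.814 to 0.914, within or above the range of the kidneys, so that liver and kidney overlapped for this arm when all livers were included. The 5p arm took 96.9 to 99.4% of the reads of the hairpin in each library. The extremes were SHR brain and BN-Lx heart, with 38 and 4 reads of the 3p arm. Over the 12 libraries of the six-tissue set, which share 2 animals, the log2 levels of the arms had a Pearson correlation of 0.99.

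mir-194-5p was also highest in liver and kidney, but the order of the tissues was not that of mir-192-5p throughout. In BN-Lx and SHR it measured 3.05 and 4.89 per ocm in liver, 0.824 and 3.16 in kidney, 0.194 and 0.0867 in testis, 0.147 and 0.0430 in brain, 0.0629 and 0.101 in spleen, and 0.0398 and 0.0321 in heart. The further livers of BN-Lx gave 5.38 and 4.33, and those of SHR 4.24 and 1.43. The liver and kidney ranges overlapped, since the six-tissue BN-Lx liver and the third SHR liver were below the SHR kidney, but each of these 8 libraries was above all 8 libraries of brain, spleen, heart and testis. Among those, only the 2 brain, 2 spleen and 2 heart libraries held more than 10 reads of mir-194-5p. Between mir-194-5p and mir-192-5p the Pearson correlation of the log2 levels over the 12 six-tissue libraries was 0.95.

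mir-215-5p was close to the detection limit everywhere. It had 31 and 14 reads in the kidneys of BN-Lx and SHR, 3 to 21 in the 6 livers and 0 to 10 in the other 8 libraries, or 144 reads in all, against 864067 of mir-192-5p, with which it shares its seed. Relative to the ocm these were 0.0453 and 0.0172 in kidney and 0.00772 to 0.0160 in liver. The highest value, 0.0578 in SHR testis, rested on 2 reads. For each mir-215-5p read there were 2121 mir-192-5p reads in the kidneys, 11042 in the livers and 224 in the 4 other tissues together. Of the remaining arms, mir-194-2-3p had 0 to 25 reads a library, and neither mir-194-1-3p nor mir-215-3p had a read, where a count of 0 allows up to 3 reads, or 0.00135 to 0.0968 per ocm depending on the library.

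The copy of mir-194 behind the longer miR-194-5p reads was read from their 3' ends. The first 22 bases are equal in the 2 hairpins, and reads that end there are split evenly between them in the files. Base 23 is the first that differs (C23A, the base of mir-194-1 first, counted from the commonest 5' start). Both stretches are printed as RNA from the RefSeq hairpins, with base 23 in capitals.
mir-194-1: uguaacagcaacuccauguggaCug
mir-194-2: uguaacagcaacuccauguggaAgu

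Nearly all reads that reached base 23 carried the base of mir-194-2, the copy beside mir-192. This held for 6959 of the 7309 such reads in the 16 libraries, or 95.2% (95% exact binomial interval 94.7 to 95.7). Reads that reached base 23 were 15.5% (second SHR liver) to 71.3% (BN-Lx kidney) of the mir-194-5p reads of a library. The copy behind the shorter reads cannot be told. The share was 93.3 to 96.4% in the 6 livers and 97.0% and 94.5% in the kidneys of BN-Lx and SHR. Brain, spleen, heart and testis together had 118 such reads from mir-194-2 and 6 from mir-194-1, or 95.2% (89.8 to 98.2), too few for a value in any 1 of their libraries. Among the 8 liver and kidney libraries the lowest and highest shares had intervals that did not overlap, those of the six-tissue SHR liver (91.5 to 94.7) and the BN-Lx kidney (94.8 to 98.4).

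A read of mir-194-1 that ended at base 22 and had an A added would be counted for mir-194-2, which reads that continue to base 24 or beyond cannot do with that single base. There were 242 of these, of which 218 (90.1%) came from mir-194-2. In the further livers the share was 95.3% (191 reads, interval 91.2 to 97.8), and in the six-tissue libraries it was 70.6% (36 of 51, interval 56.2 to 82.5). The value of the share thus depended on read length in the six-tissue set, and mir-194-2 gave the larger number of reads under both definitions in each of these 2 sets.

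**Figure D2:**
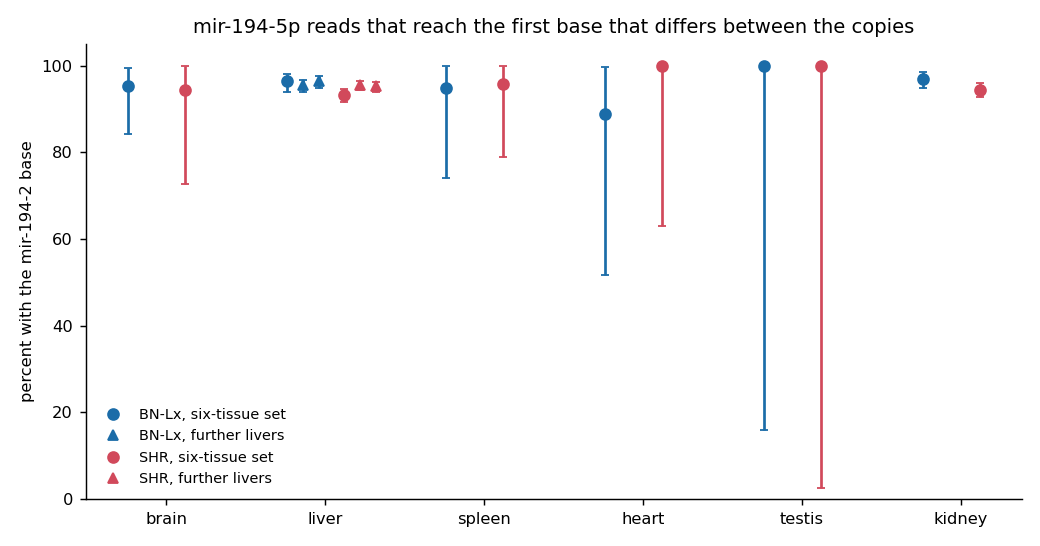
Percent of mir-194-5p reads reaching base 23 that carry the mir-194-2 base, in each of the 16 libraries by tissue, with 95% exact binomial intervals; circles are the six-tissue set and triangles the further livers. The liver and kidney libraries lie between 93.3 and 97.0%, and the wide intervals of the other tissues reflect 1 to 43 reads.

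The members were next compared between liver and kidney in the six-tissue set, with tissue and strain in 1 edgeR fit of all 12 libraries over 456 arms. None of the 3 member arms tested (mir-192-3p, mir-194-5p and mir-215-5p) passed, whereas 17.8% of all arms did (81 of 456), 34 of them higher in liver (7.46%) and 47 lower (10.3%). Without the BN-Lx liver 38 arms passed, and without the SHR liver 43. mir-192-5p is given without a test. Its kidney reads chose the group, and mir-192-3p and mir-194-5p correlate with it (0.99 and 0.95 over the 12 libraries). Their tests are thus not independent of that choice and serve as a description. The log2 difference of liver over kidney was 1.15 ± 0.48 (SE) for mir-192-3p, with an adjusted p of 0.116 in edgeR's quasi-likelihood test. It was 1.05 ± 0.70 for mir-194-5p (adjusted p = 0.345) and -1.72 ± 1.07 for mir-215-5p (adjusted p = 0.307). The median over all arms was -0.33 on the same log2 scale. It was -0.11 with RLE scaling, which also turned the split of the calls to 45 higher and 39 lower, and -1.01 with total reads, where 25 were higher and 106 lower.

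Of the 2 members with the larger level in liver, mir-192-3p was called by DESeq2, with a log2 difference of 1.39 and an adjusted p of 0.000679. This call is likewise not independent of the choice of the group. mir-194-5p depended on the kidney libraries, with a log2 difference of 2.39 without the SHR kidney (adjusted p in edgeR 0.0438) and 0.25 without the BN-Lx kidney (adjusted p = 0.912).

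The hepatocyte and epithelial miRNAs tested differed far more between liver and kidney than the members. Of the hepatocyte miRNAs listed (mir-122, mir-148a and mir-802), 4 arms, of mir-122 and mir-802, were tested and all 4 were higher in liver, among them mir-122-5p by 11.93 ± 0.39 on the log2 scale (SE, adjusted p = 2.56e-10). The median of the list was 7.56, against -0.33 over all arms, of which 7.46% were called higher in liver and 10.3% lower. mir-122, like mir-200b of the epithelial list, was also among the markers used to check the tissue labels. Of the epithelial miRNAs (mir-200a, mir-200b, mir-200c, mir-141, mir-429 and mir-205), which hold epithelial cells in their differentiated state, 6 of 8 arms tested were lower in liver and none higher, with a median of -4.47. mir-205-5p, for example, was lower in liver by a log2 difference of -5.76 ± 0.86 (SE, adjusted p in edgeR 0.00111).

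The p53-responsive miRNAs (mir-34a, mir-34b, mir-34c, mir-145, mir-143, mir-107, mir-15a and mir-16) had 12 arms tested, of which 2 were lower in liver and none higher, with a median of -0.83. The share called is close to that over all arms, of which 10.3% were lower and 17.8% passed in either direction. The called arms were mir-107-3p (-1.45 ± 0.41, SE, adjusted p in edgeR 0.0273) and mir-34c-5p (-3.25 ± 0.93, adjusted p = 0.0311). mir-34a-5p, the member best known as a p53 target, had a difference of 1.49 ± 1.01 (adjusted p = 0.363). No arm of the 3 lists passed between the strains, and neither did any other arm (0 of 270 in liver and 0 of 456 over the 6 tissues). In liver 10 p53-responsive, 7 epithelial and 4 hepatocyte arms were tested. Of these, only those of mir-34a had an unadjusted p under 0.05 in edgeR, where 6 of all 270 arms had. SHR was higher by 1.82 ± 0.73 (SE) for mir-34a-5p and 2.02 ± 0.55 for mir-34a-3p. Their p in edgeR was 0.0396 and 0.00707 before adjustment and 0.994 after it. mir-143-3p (-0.19 ± 0.58, SE), mir-145-5p (-0.21 ± 0.45) and mir-145-3p (0.07 ± 0.79) did not differ between the strains beyond their SE. The study reports mir-34a as raised in SHR liver, by its own test and by qRT-PCR. In liver the medians of SHR over BN-Lx were 0.28 (p53-responsive), -0.31 (epithelial) and 0.11 (hepatocyte), against -0.08 over all arms, and over the 6 tissues they were 0.04, -0.17 and 0.09, against -0.02.

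**Figure D3:**
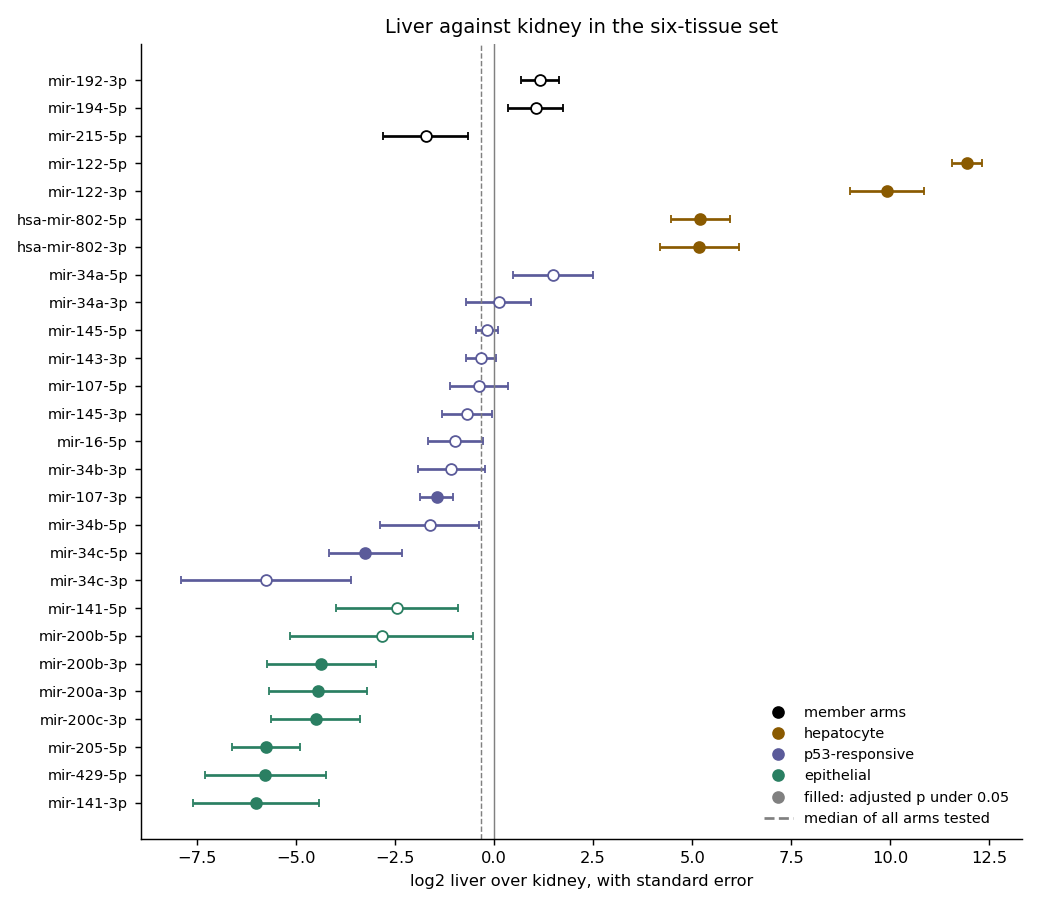
Log2 liver over kidney with its standard error for the 3 member arms tested and the arms of the hepatocyte, p53-responsive and epithelial lists, from the edgeR fit of the 12 six-tissue libraries; filled points have an adjusted p under 0.05 and the dashed line is the median of all arms. The members lie between -1.72 and 1.15, and the hepatocyte arms between 5.18 and 11.93.

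Strain differences were examined in liver, where each strain has 3 rats. Neither strain was set apart by a member. The values of mir-192-5p had a mean of 120 ± 48.4 per ocm in BN-Lx and 113 ± 4.92 in SHR (SD, n = 3), and those of mir-194-5p 4.25 ± 1.17 and 3.52 ± 1.84, and the strains overlapped for both. The log2 difference of SHR over BN-Lx was -0.09 ± 0.41 (SE) for mir-192-5p, -0.23 ± 0.46 for mir-192-3p and -0.33 ± 0.50 for mir-194-5p, each with an adjusted p of 0.994 in edgeR's quasi-likelihood test. No arm of the 270 tested passed (0%), with 6 at an unadjusted p under 0.05, and DESeq2 called none either, with 9 under 0.05. This fit pools the six-tissue and the further livers. With the replicate number as a block 22 of 270 arms had an unadjusted p under 0.05. In the 4 further livers alone 40 of 302 had, and no arm passed in either fit. mir-215-5p was below the filter on low counts.

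The 2 library sets did not give the same direction for mir-192-5p in liver. In the single pair of six-tissue livers, mir-192-5p was 1.48-fold higher in BN-Lx, and in the 4 further livers alone its log2 difference was 0.40, higher in SHR (adjusted p in edgeR 0.297). For mir-192-3p the fitted log2 difference in the further livers was 0.07, but per ocm it was lower in SHR in the six-tissue pair, and the further livers of the strains overlapped (0.914 and 0.830 in BN-Lx, 0.814 and 0.847 in SHR). For mir-194-5p the further livers gave -0.64 and the six-tissue pair was 1.60-fold higher in SHR, which is also a change of direction. Without the third SHR liver its log2 difference over the remaining 5 was 0.00.

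Over the 6 tissues, mir-192-5p was lower in SHR than in BN-Lx in 5 tissues and higher in spleen. The log2 difference of SHR over BN-Lx in the tissue and strain fit was -0.41 ± 0.14 (SE), and p in edgeR was 0.0104 before adjustment and 0.9999 after it. The ratio of BN-Lx to SHR was 1.48 in liver and in kidney, 1.55 in brain, 1.65 in testis and 1.15 in heart, and that of SHR to BN-Lx 1.22 in spleen. No arm passed of the 456 tested (0%), with 7 at an unadjusted p under 0.05, and none in DESeq2, with 18 under 0.05. For mir-192-3p the difference was -0.18 ± 0.32, for mir-194-5p 0.12 ± 0.46 and for mir-215-5p -0.33 ± 0.69, all with the same adjusted p. Because each strain stands for 1 rat here, strain and animal cannot be told apart.

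Kidney had the widest gap between the strains for mir-194-5p. It took 564 reads in BN-Lx and 2578 in SHR, 3.84-fold more per ocm in SHR, while mir-192-5p was 1.48-fold lower there. In brain mir-194-5p was 3.42-fold higher in BN-Lx. A fit of all 16 libraries with each strain and tissue as its own group, added after the values had been seen, took the spread from the livers, the replicated tissue, and gave a log2 difference of 2.06 ± 1.17 (SE) between the strain difference in kidney and that in liver, where p in edgeR was 0.116 before adjustment and 0.9998 after it. None of its 465 arms passed (0%), with 13 at an unadjusted p under 0.05. The list medians in this fit were -2.14 (p53-responsive), 1.54 (epithelial) and -0.59 (hepatocyte), against -0.15 over all arms. The p53-responsive median fell in a gap and describes no arm of that list. The arms of mir-34a, mir-34b and mir-34c were all below it, down to -5.52 (mir-34c-3p). Those of mir-107, mir-143, mir-145 and mir-16 were all above it, from -1.29 (mir-16-5p) to -0.203 (mir-145-3p). Each strain had 1 kidney here. The livers themselves ran from 1.43 to 5.38 per ocm in mir-194-5p.

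The ratio of mir-194-5p to mir-192-5p, which does not depend on library scaling, moved accordingly. For 100 reads of mir-192-5p there were 1.07 of mir-194-5p in BN-Lx kidney and 6.06 in SHR kidney, and from 1.31 to 6.38 in the 6 livers, both livers at the ends being further livers. Over the 6 tissues the log2 ratio was higher in SHR in 3 tissues (liver, spleen and kidney) and higher in BN-Lx in the other 3, with a mean difference of 0.43 ± 1.29 (SD, n = 6 pairs) and p = 0.469 in a two-sided exact paired permutation test, in which 0.0313 is the smallest value possible. The 6 pairs are tissues of 1 rat a strain, so strain and animal cannot be told apart here either.

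The gap between the kidneys was not of equal size for all lengths of mir-194-5p. Reads of 21 nt from the commonest start, 1 base short of the RefSeq sequence, numbered 34 in BN-Lx and 887 in SHR, a 21.9-fold difference per ocm. Reads of 22 nt numbered 67 and 652 (8.17-fold) and those of 23 nt, which end at the first base that differs between the copies, 391 and 875 (1.88-fold). The 23 nt reads made up 69.3% of mir-194-5p in BN-Lx kidney, against 33.9% in SHR kidney and 14.6 to 49.0% in the 6 livers. The BN-Lx kidney was therefore the library of these 8 with the lowest share of 21 nt reads, 6.03%, where the others had 32.7 to 73.0%. The livers ran from 0.497 to 3.73 per ocm in the 21 nt reads, from 0.217 to 0.701 in those of 22 nt and from 0.594 to 2.40 in those of 23 nt.

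Read length also differed between the kidneys for other miRNAs. Over the 113 arms with at least 200 reads in both kidneys, the mean read length of BN-Lx minus that of SHR had a median of 0.0643 nt and ranged from -0.405 to 0.752 nt. mir-194-5p stood at 0.429 nt, the 7th largest, mir-192-3p at 0.244 nt and mir-192-5p at 0.138 nt. Whether this shift has a part in the difference of mir-194-5p was not tested.

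**Figure D4:**
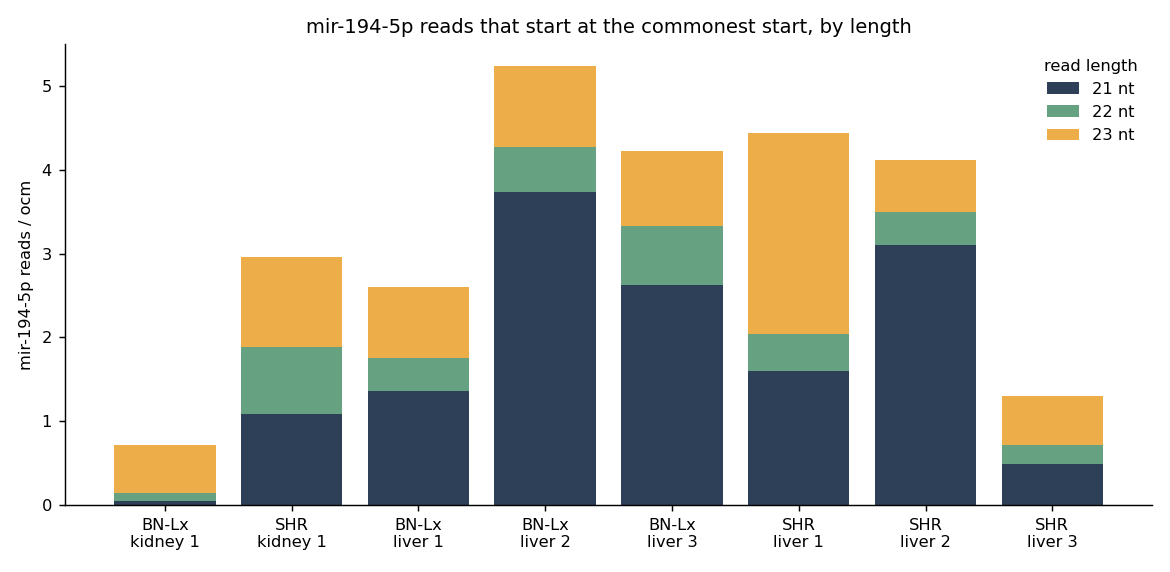
Reads of mir-194-5p per ocm in the 2 kidneys and 6 livers (1 bar a library), stacked by read length for reads of the commonest start. The 21 nt part is 0.0497 per ocm in BN-Lx kidney, 1.09 in SHR kidney and 0.497 to 3.73 in the livers.

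The ends of mir-192-5p were then compared, as the reads begin and end at more than 1 base of the hairpin. Most reads start at base 24 of the hairpin and end at base 44 or 45, giving 21 or 22 nt. The share of reads ending at base 45 or later was 46.4% ± 5.0 (SD, n = 6) in liver and 39.7% ± 7.8 (SD, n = 2) in kidney, where BN-Lx had 45.1% and SHR 34.2%. The livers had 40.6 to 54.2%, so the tissues overlapped, with p = 0.214 in a two-sided exact permutation test whose smallest possible value is 0.0357. The mean and the test pool both library sets, and the test ignores that the kidneys come from the same rats as the six-tissue livers. In the six-tissue set alone liver was 2.17 percentage points higher. The smallest possible p of the permutation test there is 0.167, so it cannot decide. The six-tissue livers alone had 43.1% in BN-Lx and 40.6% in SHR, between the 2 kidneys, and the further livers had 44.2 to 54.2%. Over the 6 tissues the share was 40.2% ± 5.8 in BN-Lx and 38.8% ± 4.5 in SHR (SD, n = 6), a mean paired difference of -1.42 percentage points with p = 0.75 in the exact paired permutation test. These are tissues of 1 rat a strain, so the SD is a spread between tissues, and strain and animal cannot be told apart.

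A smaller fraction of mir-192-5p reads started 1 base later, at base 25, which moves the seed. It is printed from the RefSeq hairpin up to base 47, with its own bases 2 to 8 in capitals, because none of the 724 mature rat miRNAs in RefSeq has the seed GACCUAU.
mir-192-5p, later start: uGACCUAUgaauugacagccagu

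This later start was more frequent in liver and kidney than in the other tissues, and most frequent in the further livers. Its share was 3.92 to 5.87% in the 8 libraries of brain, spleen, heart and testis, 7.21 and 8.31% in the six-tissue livers and 8.07 and 7.47% in the kidneys, in the order BN-Lx and SHR. The ranges did not overlap, although the 95% intervals of 4 of these 8 libraries reached those of liver or kidney. They were SHR and BN-Lx testis and BN-Lx heart and spleen, with 6, 8, 34 and 44 reads of this start. The further livers of BN-Lx had 16.6 and 15.3%, and those of SHR 12.7 and 13.9%. This pattern was noticed in the data and is given as a description.

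The further livers differ from the six-tissue libraries in more than this share. Their shortest reads are of 15 nt instead of 17 nt, and with reads of at least 17 nt alone the later start took 12.7 to 16.6%. Their later-start reads also ended further downstream, 42.1 to 53.8% at base 47 or beyond, against 20.3 and 18.4% in the six-tissue livers and 4.15 and 2.52% in the kidneys of BN-Lx and SHR. The livers of the 2 library sets thus differed in both measures with the tissue held fixed, and only the six-tissue livers can be set beside the kidneys for them.

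**Figure D5:**
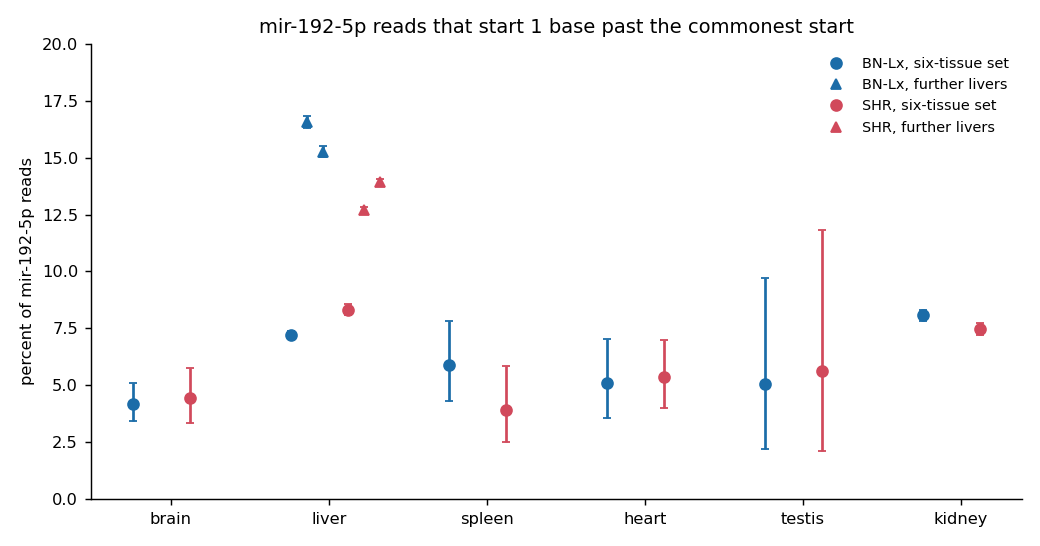
Percent of mir-192-5p reads that start 1 base past the commonest start in each of the 16 libraries by tissue, with 95% exact binomial intervals; circles are the six-tissue set and triangles the further livers. The 4 further livers lie between 12.7 and 16.6%, and the six-tissue livers and kidneys between 7.21 and 8.31%.

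The arms whose profile was most like that of the members were sought among 399 arms with at least 100 reads, by the Pearson correlation of log2(reads/ocm + 0.01) over the 12 six-tissue libraries. For mir-192-5p they were mir-203-3p, a miRNA of stratified epithelium (0.90), the 5p arm of a hairpin that the files list without a miRNA name (0.88) and mir-193-5p (0.88). For mir-194-5p they were mir-193-5p (0.90), the 5p arm of the hairpin named after human mir-802 (0.86) and the same unnamed arm (0.85). The order of liver and kidney was not shared by all of them, as mir-203-3p was higher in kidney, with 1.99 and 1.10 per ocm in BN-Lx and SHR, than in liver, with 0.988 and 0.639. mir-802-5p had 2.06 and 2.71 per ocm in liver and 0.0716 and 0.0589 in kidney. These correlations describe 12 libraries from 2 rats, and Spearman's correlation for the same arms was 0.56 to 0.76 with mir-192-5p and 0.67 to 0.73 with mir-194-5p.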

How the data were processed

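Small RNA (a gel fraction that also takes in piRNAs) was cloned and sequenced on the SOLiD platform by the authors, who mapped linker-trimmed reads to miRNA hairpins with SHRiMP and kept perfect matches (genome RGSC3.4, miRBase version 12). The deposited values are estimated counts: reads per hairpin, start and end, divided evenly where a read fits several hairpins. Here reads were summed per arm (712 arms). Arms were set by the RefSeq hairpin length (244 hairpins), the order of the 2 arms (92) or position (56). Rounded reads were fitted with edgeR 4.0.16 in R 4.3.3 (TMM, filterByExpr, quasi-likelihood test, two-sided, Benjamini-Hochberg threshold 0.05), with both mir-194-5p copies summed. DESeq2 1.42.0 was an alternative. The edgeR fit was tested on simulated data, drawn with a smaller spread between libraries than that of the real ones. Exact permutation tests and binomial intervals (scipy 1.17.1) were two-sided. The ratio of mir-194-5p to mir-192-5p had 0.5 reads added to each.

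The members and lists were chosen with earlier results of these data known. All member arms with reads were named, together with the 3 arms most like mir-192-5p and mir-194-5p and the arms of 3 lists (p53-responsive, epithelial and hepatocyte miRNAs). Replicate numbers are shared by the livers of both strains. Same-numbered livers deviated together from their strain means (correlations over 270 arms of 0.67, 0.57 and 0.30 for numbers 1 to 3), so that a block fit was made as well. Number 1 is the six-tissue liver in both strains. These correlations therefore cannot separate pairing by number from a difference between the library sets. The 3 livers of a strain come from separate rats according to the study's text. Depth was 26880 to 3229461 reads a library, and a count of 0 allows 3 reads. The alternatives were other scalings, filters and tools, separate mir-194 copies, and leaving out each library or tissue. Sequences and positions are from RefSeq (GRCr8), where all 4 hairpins were found. The piRNA cluster list was not used.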

Additional observations from a re-analysis of the deposited data

How the results depend on the processing

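In liver, no arm passed between the strains under any alternative run. The difference of SHR over BN-Lx turned for mir-192-5p without a filter (0.13) and in the 4 further livers alone (0.40), and for mir-192-3p in the further livers (0.072, from the TMM-scaled fit). Leaving out each liver gave -0.26 to 0.29 for mir-192-5p, -0.46 to 0.22 for mir-192-3p and -0.64 to 0.00070 for mir-194-5p. The replicate block gave -0.02, -0.15 and -0.42 for these arms with 0 calls, and changed no call. Over the 6 tissues, leaving out a tissue gave -0.31 to 0.53 for mir-194-5p, -0.62 to 0.084 for mir-215-5p, 0.02 to 0.74 for the log2 ratio of mir-194-5p to mir-192-5p, and -3.67 to 0.49 percentage points for the longer ends of mir-192-5p. Between liver and kidney, 81 arms were called in the fit described, 131 with total reads as the scaling, 135 with all 16 libraries and 38 to 75 without a library; 38 was without the BN-Lx liver and 43 without the SHR liver of the six-tissue set. mir-192-3p passed in DESeq2 alone (1.39), and mir-194-5p spanned 0.25 to 2.39 without a library. The longer ends of mir-192-5p differed between liver and kidney by 1.28 to 12.3 percentage points without a library. Levels of liver over kidney (log2) were 0.53 relative to total reads and 1.21 with TMM scaling for mir-192-5p, against 1.18 per ocm, and 0.47 relative to total reads for mir-192-3p, against 1.13. Liver and kidney over the 4 other tissues came to 5.48 and 6.26 for mir-192-5p (5.75 per ocm) and 5.08 and 5.99 for mir-192-3p (5.37). The mir-194-2 share was 90.1% in reads 2 or more bases past the shared sequence. Of the 3 arms most like mir-192-5p, 1 stayed with Spearman's correlation, and of those for mir-194-5p 0 stayed with Spearman's and 1 relative to total reads. The cause was not tested in any of these. Testis, with at most 158 reads of mir-192-5p, and mir-215-5p, with at most 31 reads in a library, are limited by depth.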
